A study of Sus scrofa with 17 samples.

Results

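ARNT2 (ENSSSCG00000040288) is 1 of the 26560 genes counted by RNA-seq in biopsies of 17 porcine kidneys. It was chosen by its measured values in these same kidneys, since earlier results had shown it low in G3. Its levels are therefore given here as a description, without a test between the groups. All kidneys came from wild type female Dutch Landrace pigs aged between 6 months and 1 year, with 1 kidney per animal. Every kidney underwent 32 min of warm ischemia, then hypothermic machine perfusion (HMP) for 24 h and normothermic machine perfusion (NMP) for 5 h, and was sampled when NMP ended. G1 (5 kidneys) received the vehicle PBS in both perfusions. G2 (6 kidneys) received extracellular vesicles of porcine urine progenitor cells (pUPC-EVs) in HMP alone, and G3 (6 kidneys) received them in HMP and again in NMP. The NMP perfusate contained autologous blood, and each biopsy mixed all cell types of the kidney.

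ARNT2 encodes a basic helix-loop-helix PAS (bHLH-PAS) transcription factor. These factors bind DNA as pairs of a sensor subunit, whose level or activity answers to oxygen, foreign chemicals, neuronal activity or the time of day, and a general partner. ARNT is the general partner found in most tissues, and the closely related ARNT2 is best known from brain and kidney, where it can pair with the hypoxia-inducible factors HIF1A and EPAS1 and with SIM1. When oxygen is low, prolyl hydroxylases no longer mark HIF subunits for destruction, and the HIF pairs raise genes of glycolysis, red cell production and vessel growth. Such genes are of interest in a kidney that passes through ischemia, cold perfusion and rewarming.

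In the RefSeq annotation of Sscrofa11.1, ARNT2 lies on chromosome 7 from 49259118 to 49450471. No other RefSeq gene overlaps it. The counts were made per gene, so exons, introns and transcript variants of ARNT2 were not told apart. The nearest protein-coding genes are FAH on the side of lower coordinates and ABHD17C and CEMIP on the other. FAH, an enzyme of tyrosine breakdown, had a log2 fold change between G3 and G1 of -0.06, and CEMIP, a protein that binds hyaluronan, had one of -0.13.

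The total count per kidney ran from 19270046 to 24736473. Markers of proximal tubule (8 genes with a summed level of at least 11900 CPM in every kidney), thick ascending limb, distal tubule, collecting duct, podocyte, endothelium, fibroblast, smooth muscle and leukocyte were all detected in each group. The sample codes in the labels form 3 runs of numbers, here called code series A (5 kidneys), B (3 kidneys) and C (9 kidneys). Their meaning is not given, and values within them are set beside the pooled ones. By the quasi-likelihood test of edgeR, 2 of 25719 genes (0.00778%) passed an adjusted p of 0.05 when G3 was set against G1, 0 of 25699 (0.0%) for G2 against G1 and 0 of 25701 (0.0%) for G3 against G2. DESeq2 called 29, 1 and 3 genes. The count of 2 was not stable: it was 11 with code series in the model, 9 with kidney number as a block and 0 with all groups fitted together, and leaving out 1 kidney gave 0 (without kidney 1 or 3 of G1 or kidney 2 or 5 of G3) to 9 (without kidney 5 of G1). At an unadjusted p under 0.05 edgeR listed 1216, 901 and 805 genes.

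ARNT2 was highest in G1, intermediate in G2 and lowest in G3. Levels are in CPM, counts scaled to a common library size after TMM, which are not corrected for gene length and so are compared between kidneys, not between genes. In G1 the 5 kidneys had 79.5, 60.1, 83.7, 81.4 and 86.7 CPM (kidneys 1 to 5; mean 78.3 ± 10.5, SD, n = 5). With TMM scaling, kidney 2 stood apart from the other 4 of G1, which held the 4 highest values of all 17 kidneys. Without TMM this ranking changed. Per total count, kidney 5 of G2 (1755 counts in 20677418) exceeded kidney 4 of G1 (1610 in 20474530).

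In G2 the kidneys had 75.2, 57.8, 53.8, 47.4, 78.4 and 72.5 CPM (kidneys 1 to 6; median 65.1, mean 64.2 ± 12.8, SD, n = 6). G2 had the widest spread, with a coefficient of variation of 19.98% against 13.4% in G1 and 11.0% in G3. With TMM scaling, kidneys 1, 5 and 6 lay just under the 4 high kidneys of G1, while kidneys 2, 3 and 4 lay below every kidney of G1.

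In G3 the kidneys had 57.8, 47.4, 57.2, 52.1, 56.1 and 65.8 CPM (kidneys 1 to 6; median 56.6, mean 56.1 ± 6.16, SD, n = 6). Of these, 5 of 6 lay below every kidney of G1, and the exception, kidney 6, exceeded only kidney 2 of G1. The ranges of G1 and G3 overlapped through these 2 kidneys, and this overlap depended on TMM scaling. Kidney 6 of G3 had the lowest TMM factor, 0.8248, with 1291 ARNT2 counts in a total of 23792594. Kidney 2 of G1 had a factor of 1.089, with 1316 counts in 20104093. Per total count without TMM, every kidney of G3 lay below every kidney of G1. The share of genes that part so without TMM was not counted. Neighbouring groups in the order, G1 with G2 and G2 with G3, overlapped in their intervals of the mean ± 1 SD.

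**Figure D1:**
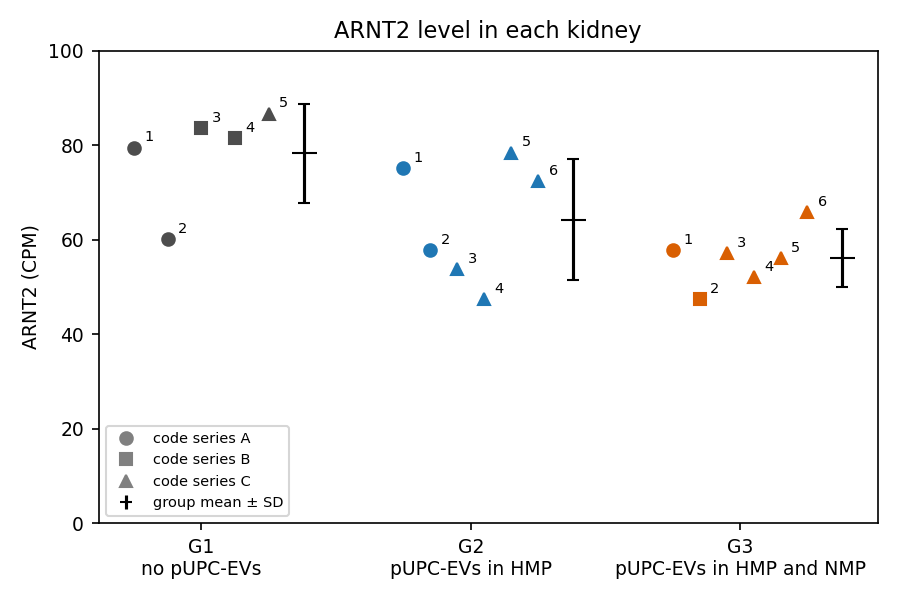
ARNT2 level in CPM on a linear axis from 0, 1 point per kidney labelled with its number, shaped by code series, with the group mean ± SD in black. With TMM scaling, 4 of the 5 kidneys of G1 exceeded all others and kidney 2 of G1 (60.1 CPM) lay in the range of G3. Neither held per total count without TMM. G2 spanned 47.4 to 78.4 CPM.

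The fitted log2 fold change of ARNT2 for G3 against G1 was -0.49 ± 0.12 (SE), a fold of 0.711. Between G2 and G1 it was -0.29 ± 0.15, a fold of 0.82, and between G3 and G2 it was -0.19 ± 0.14, a fold of 0.876. The first pair of comparisons shares the G1 kidneys, and the other pairs share G2 or G3, so the values are not independent of each other. Over all tested genes the median log2 fold changes were -0.02, -0.01 and 0.00. ARNT2 had 974 to 1994 counts per kidney. At 974 counts the coefficient of variation from counting alone is 3.2%, which is below the 11.0% to 19.98% between kidneys of 1 group. In bulk tissue, less ARNT2 RNA per cell and fewer cells that make it cannot be told apart.

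The direction was the same in each code series that holds the groups compared. Between G3 and G1 the difference of mean log2 CPM was -0.26 in series A (1 kidney against 2), -0.80 in series B (1 against 2) and -0.59 in series C (4 against 1). Between G2 and G1 it was -0.07 in series A (2 against 2) and -0.49 in series C (4 against 1). Series B has no G2 kidney. Between G3 and G2 it was -0.19 in series A (1 against 2) and -0.10 in series C (4 against 4). Series C has 1 kidney of G1, so its 2 larger differences rest on kidney 5 of G1, the highest of the 17. Without kidney 2 of G1 the fitted value for G3 against G1 was -0.56. Without kidney 5 of G2 that for G3 against G2 was -0.13.

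The other general partners of the bHLH-PAS family did not share this order. ARNT, the partner of most tissues, had a mean of 35.2 ± 5.65 CPM in G1 (SD, n = 5), 31.4 ± 11.2 in G2 and 34.8 ± 7.72 in G3 (n = 6 each). Its range in G3, 22.9 to 43.5 CPM, covered the whole range of G1, 29.6 to 41.6 CPM. The log2 fold change of ARNT for G3 against G1 was -0.02 ± 0.17 (SE; adjusted p = 0.981, edgeR), and over the 17 kidneys its log2 CPM had a Pearson r of -0.04 with that of ARNT2.

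BMAL1, which pairs with CLOCK in the circadian clock, had a mean of 13.9 ± 1.82 CPM in G1, 13.0 ± 3.11 in G2 and 16.6 ± 3.64 in G3 (SD). In G3, 4 of 6 kidneys lay above all G1 kidneys and 1 lay below them. Its log2 fold change was 0.26 ± 0.17 (SE; adjusted p = 0.813, edgeR) between G3 and G1 and 0.37 ± 0.18 (adjusted p = 0.948) between G3 and G2. BMAL2, its paralog, had 9.84 ± 2.98, 7.42 ± 3.93 and 10.5 ± 2.63 CPM in G1, G2 and G3 (SD), with overlapping ranges in every comparison. In G3 against G2 the log2 fold changes of ARNT, BMAL1 and BMAL2 were all above 0 and that of ARNT2 was below 0.

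Among the sensor subunits, both HIF subunits that pair with ARNT proteins in low oxygen had higher means with pUPC-EVs, within the spread of the kidneys. EPAS1 (HIF-2 alpha) had 291.7, 333.9, 357.2, 405.8 and 326.2 CPM in the G1 kidneys (mean 343.0 ± 42.3, SD). In G2 it ran from 358.0 over a median of 395.2 to 495.0 CPM, and in G3 from 330.2 over 415.7 to 488.4 CPM. The groups overlapped, and 3 of 6 kidneys of G2 and 3 of 6 of G3 exceeded every G1 kidney.

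The log2 fold change of EPAS1 was 0.28 ± 0.13 (SE) between G3 and G1 (adjusted p = 0.813, edgeR) and 0.25 ± 0.14 between G2 and G1 (adjusted p = 0.84, edgeR). HIF1A (HIF-1 alpha) had 157 ± 13.5 CPM in G1, 176 ± 30.0 in G2 and 177 ± 21.8 in G3 (SD), and its log2 fold change for G3 against G1 was 0.16 ± 0.11 (SE; adjusted p = 0.813, edgeR). HIF3A, a HIF subunit that can restrain the others, had 0 to 24 counts per kidney, too few to show a difference of this size.

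NPAS2, a sensor subunit of the clock that can replace CLOCK, had 33.0, 32.8, 27.4, 24.7 and 27.7 CPM in G1. In G3 it ran from 26.0 over a median of 35.6 to 48.1 CPM, and 5 of 6 kidneys exceeded every G1 kidney. Its log2 fold change for G3 against G1 was 0.30 ± 0.14 (SE; adjusted p = 0.813, edgeR). CLOCK itself had 28.4 ± 6.44, 30.2 ± 4.34 and 31.5 ± 6.98 CPM in G1, G2 and G3 (SD).

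SIM1, a sensor subunit known as a partner of ARNT2 in the hypothalamus, was detected in every kidney with 128 to 314 counts. It had a median of 10.5 CPM in G1 (range 7.94 to 13.5), of 8.56 in G2 (5.78 to 12.7) and of 10.2 in G3 (7.98 to 12.3), and its log2 fold change for G3 against G1 was -0.06 ± 0.17 (SE; adjusted p = 0.977, edgeR). Its paralog SIM2 had 1.63, 1.53 and 1.74 CPM on average, and its ranges overlapped in every comparison.

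AHR, the receptor of dioxin-like chemicals, had 20.6 ± 3.69, 22.1 ± 3.95 and 19.6 ± 4.32 CPM in G1, G2 and G3 (SD). AHRR, its repressor, had 2.74 ± 1.87, 2.34 ± 1.45 and 1.94 ± 0.930 CPM, with a log2 fold change between G3 and G1 of -0.51 ± 0.43 (SE; adjusted p = 0.813, edgeR). The point estimate of AHRR was as low as that of ARNT2, but its SE was larger than that of ARNT2.

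The remaining sensor subunits, known from the brain, were near the limit of detection. NPAS1 had 2 to 12 counts per kidney and NPAS3 had 0 to 18. NPAS4, which is switched on by neuronal activity and pairs with ARNT2 there, had 0 counts in all 5 kidneys of G1, 1 count in 1 kidney of G2, and 1 and 2 counts in 2 kidneys of G3. At these counts a difference in NPAS4 was not detectable, and no fold is given.

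Of the 15 other bHLH-PAS genes tested, 0 had an adjusted p under 0.05 and 0 an unadjusted p under 0.05 by edgeR in any of the 3 comparisons. The background for unadjusted calls was 1.94% higher and 2.79% lower between G3 and G1, 1.42% and 2.09% between G2 and G1, and 1.61% and 1.52% between G3 and G2. By DESeq2, 1 of the 15 (EPAS1) had an unadjusted p under 0.05 in G3 against G1, where 3.72% of all genes passed in either direction. In G2 against G1 it was 1 as well (again EPAS1), where 2.58% of all genes passed. None of the 15 had an adjusted p under 0.05 by DESeq2. The median log2 fold change of the 15 was 0.09 between G3 and G1, -0.10 between G2 and G1 and 0.18 between G3 and G2.

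**Figure D2:**
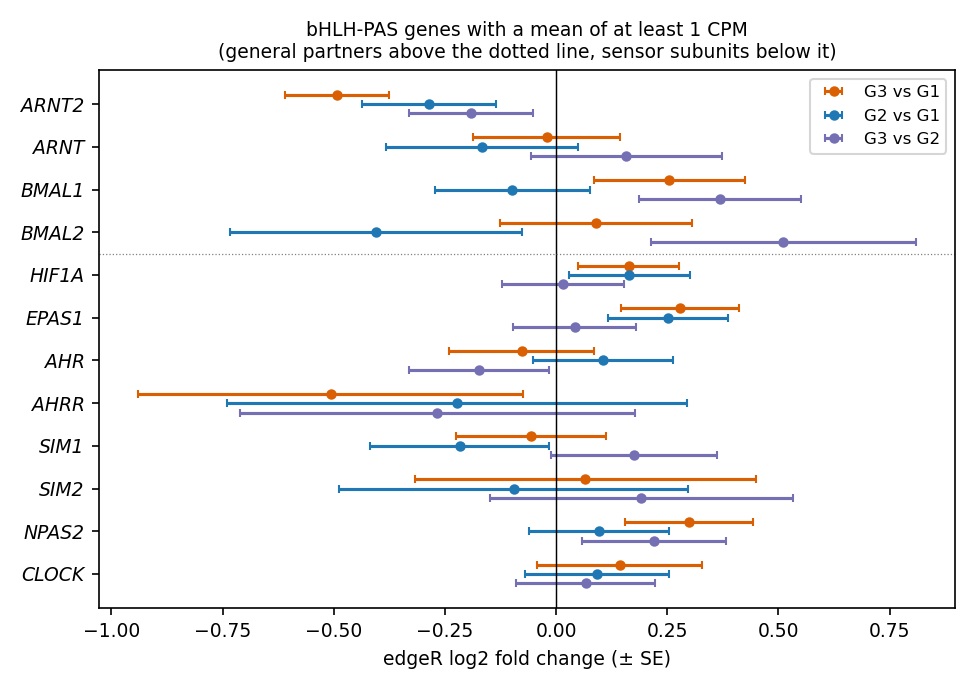
Log2 fold change of each bHLH-PAS gene with a mean of at least 1 CPM (points, edgeR fit, bars ± SE) in G3 against G1, G2 against G1 and G3 against G2, general partners above the dotted line. ARNT2 was below 0 in all 3 comparisons, at -0.49, -0.29 and -0.19, ARNT lay near 0 between G3 and G1 (-0.02), and EPAS1 (0.28) and NPAS2 (0.30) lay above 0.

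The genes that control HIF stability and activity were read from a list of 16, of which 13 had an identifier in the count table. Their median log2 fold change was -0.03 between G3 and G1, 0.03 between G2 and G1 and -0.05 between G3 and G2. By edgeR 0 of 13 had an unadjusted or adjusted p under 0.05 in any comparison, and by DESeq2 0 of 13 as well. Of all tested genes, 4.73%, 3.51% and 3.13% had an unadjusted p under 0.05 by edgeR in these comparisons. By DESeq2 3.72%, 2.58% and 2.12% did. In a list of 13, a count of 0 lies near these shares.

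EGLN3, a prolyl hydroxylase that marks HIF subunits and is itself a HIF target, had 41.6 ± 8.46 CPM in G1, 46.6 ± 8.99 in G2 and 50.03 ± 6.62 in G3 (SD). The log2 fold change of EGLN3 for G3 against G1 was 0.26 ± 0.14 (SE; adjusted p = 0.813, edgeR). CITED2, which competes with HIF subunits for the coactivators CREBBP and EP300, had 62.3 ± 10.6 CPM in G1, 54.2 ± 15.9 in G2 and 52.1 ± 8.54 in G3 (SD), in the same order as ARNT2 and with overlapping ranges. Its log2 CPM had an r of 0.54 with ARNT2 over the 17 kidneys and of 0.44 after the group means were removed.

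Of 48 HIF target genes, 46 had an identifier. Their median log2 fold change was 0.01 between G3 and G1, 0.06 between G2 and G1 and -0.04 between G3 and G2. Between G3 and G1, 24 of 46 had a log2 fold change above 0 and 22 below 0, where 46.9% of all tested genes were above 0. Between G3 and G2, 11 of 45 were above 0 and 34 below, where 49.7% of all tested genes were above 0.

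By edgeR 1 of the 46 HIF targets was lower in G3 than in G1 at an unadjusted p under 0.05, and 0 were higher, where the background was 2.79% lower and 1.94% higher. PDK1, a kinase that inhibits pyruvate dehydrogenase, had 18.6, 17.7, 23.4, 29.5 and 19.4 CPM in the G1 kidneys. In G3 it ran from 15.9 over a median of 16.8 to 20.9 CPM, and 4 of 6 kidneys lay below every G1 kidney. Its log2 fold change was -0.32 ± 0.14 (SE; unadjusted p = 0.0404, adjusted p = 0.813, edgeR).

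Between G2 and G1, 2 of 46 HIF targets were higher at an unadjusted p under 0.05 and 0 were lower, where 1.42% of all genes were higher and 2.09% lower. HMOX1, heme oxygenase 1, which also answers to heme and oxidative stress, had 229.9, 99.8, 154.2, 242.8 and 223.6 CPM in G1. In G2 it ran from 219.2 over a median of 367.0 to 529.7 CPM, and 4 of 6 kidneys exceeded every G1 kidney. Its log2 fold change was 0.96 ± 0.26 (SE; unadjusted p = 0.00168, adjusted p = 0.84, edgeR).

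In G3, HMOX1 ran from 134.5 over a median of 231.1 to 396.2 CPM, between the levels of the other groups. Against G2 its log2 fold change was -0.56 ± 0.26 (SE; unadjusted p = 0.0421, adjusted p = 0.948, edgeR). BHLHE41, a repressor in the clock and a HIF target, had 18.1 ± 1.93 CPM in G1, 25.5 ± 10.02 in G2 and 16.8 ± 5.15 in G3 (SD). The log2 fold change of BHLHE41 was 0.50 ± 0.22 between G2 and G1 (unadjusted p = 0.0403, adjusted p = 0.84, edgeR) and -0.60 ± 0.25 between G3 and G2 (unadjusted p = 0.0261, adjusted p = 0.948, edgeR). HMOX1 and BHLHE41 were highest in G2, so their order of groups was not that of ARNT2. Their r with ARNT2 over the 17 kidneys was -0.25 and -0.13.

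Together with the sensor subunits, the other general partners and the control genes, the HIF targets form a list of 73 genes with an identifier. By edgeR 1 of 73 was lower and 0 were higher between G3 and G1 at an unadjusted p under 0.05. For G2 against G1, 2 of 73 were higher and 0 lower, and for G3 against G2, 2 of 72 were lower and 0 higher. These are 1.37%, 2.74% and 2.78% of the list in either direction, where 4.73%, 3.51% and 3.13% of all tested genes passed. None of the 73 had an adjusted p under 0.05 in any comparison by either tool, and the smallest adjusted p by edgeR was 0.813. The counts depended on the model. When code series was added to it, 7 of 73 (9.59%) passed for G3 against G1, 2 higher and 5 lower, against 4.89% of all genes, 7 of 73 (9.59%, all genes 4.42%) for G2 against G1 and 7 of 72 (9.72%, all genes 3.36%) for G3 against G2. With kidney number as a block 8 of 73 passed for G3 against G1, 11.0% against 4.39% of all genes. Leaving out 1 kidney moved the count between G3 and G1 to between 0 (without kidney 4 of G3) and 11 (15.1%, all genes 5.48%, without kidney 3 of G3), between G2 and G1 to between 1 and 5 (6.85%, all genes 4.7%, without kidney 2 of G2), and between G3 and G2 to between 0 and 7 (9.72%, all genes 3.89%, without kidney 2 of G2).

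**Figure D3:**
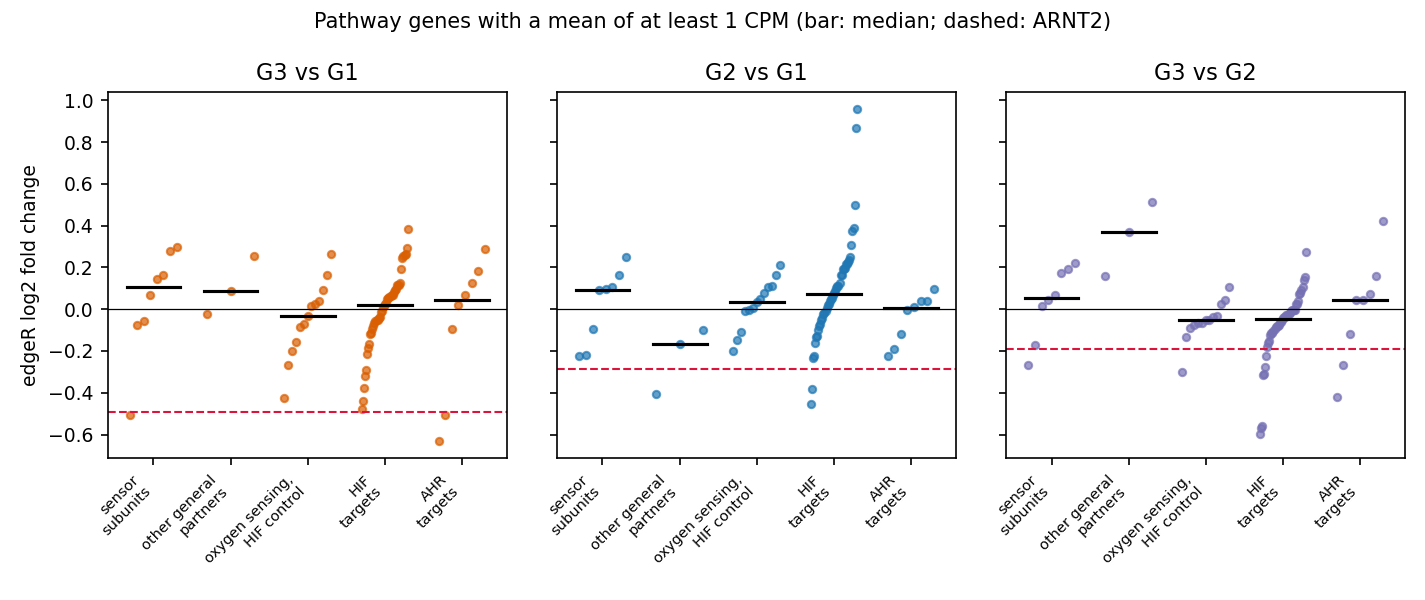
Log2 fold change (edgeR) of the genes of 5 lists with a mean of at least 1 CPM, 1 panel per comparison, 1 point per gene, black bars for list medians and a dashed line for ARNT2. The list medians lie within 0.2 of 0 except that of the 3 other general partners between G3 and G2 (0.37), and HMOX1 is the highest HIF target between G2 and G1 (0.96).

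Of 9 targets of AHR, which pairs with ARNT, 8 had an identifier. By edgeR 0 of 8 had an unadjusted or adjusted p under 0.05 in any comparison, and by DESeq2 0 of 8 as well. With 8 genes this lies near the unadjusted shares of all genes. These were 4.73%, 3.51% and 3.13% by edgeR for G3 against G1, G2 against G1 and G3 against G2, and 3.72%, 2.58% and 2.12% by DESeq2. CYP1A1, the oxidase used as the standard readout of AHR, had a median of 30.9 CPM in G1 (range 15.4 to 45.01), of 30.3 in G2 (11.7 to 34.5) and of 41.4 in G3 (17.6 to 52.0). CYP1A2, a related oxidase, had 2.23 ± 1.38, 1.95 ± 1.20 and 1.46 ± 0.805 CPM (SD). NQO1, a quinone reductase also driven by NFE2L2, had 12.4 ± 0.829 CPM in G1, 12.8 ± 1.70 in G2 and 14.2 ± 1.33 in G3, and 4 of 6 kidneys of G3 exceeded every G1 kidney. The log2 fold change of NQO1 for G3 against G1 was 0.18 ± 0.12 (SE; adjusted p = 0.813, edgeR), and it had an r of -0.64 with ARNT2 over the 17 kidneys.

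Targets of SIM1 or NPAS4 with ARNT2 in the brain were low in these kidneys. AVP, the hormone vasopressin, had means of 1.12, 1.06 and 1.06 CPM in G1, G2 and G3, with 3 to 67 counts per kidney, and BDNF, a nerve growth factor, had 1 to 12 counts. CRH had at most 6 counts, OXT at most 13 and SST at most 5 counts per kidney. By edgeR 0 of 5 measured members had an adjusted p under 0.05 (0 by DESeq2 as well). At an unadjusted p under 0.05 edgeR listed 1 of 5, CRH, as higher in G3 than in G2, where 1.61% of all genes were higher. CRH had an unadjusted p of 0.0372 there (DESeq2 0.0658), which rests on 0 to 3 counts per kidney in G2.

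Likeness to ARNT2 was measured by the Pearson r of log2 CPM over the 17 kidneys for 13710 genes with a mean of at least 1 CPM. The points share libraries and scaling factors, the r include the differences between groups, and they are given as a description, without p. The median r was -0.02, 1 gene had an r over 0.8 and 0 genes an r under -0.8. Among 11807 genes with a symbol the highest r were those of KLC3 (0.80), RASSF5 (0.80), DACT1 (0.79), DUSP16 (0.75), UPF3A (0.75) and EPHB3 (0.74). After the group means were removed their r were 0.75, 0.67, 0.73, 0.61, 0.50 and 0.50, of which KLC3 and DACT1 stayed among the 6 highest, and within the 9 kidneys of code series C they were 0.78, 0.84, 0.74, 0.68, 0.66 and 0.76.

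KLC3, a light chain of the kinesin motor, had 2.95 ± 0.325 CPM in G1, 2.76 ± 0.769 in G2 and 2.21 ± 0.406 in G3 (SD). RASSF5, an effector of RAS, had 13.2 ± 4.23, 9.83 ± 3.37 and 7.64 ± 1.27 CPM. DACT1, which acts on Dishevelled in Wnt signalling, had 7.04 ± 1.33, 6.59 ± 2.00 and 5.20 ± 0.643 CPM. These 3 genes kept the order G1, G2, G3 of ARNT2 in their means, and their ranges in G3 overlapped those in G1. They were chosen by r with the group differences included, so that order follows largely from the choice.

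DUSP16, a phosphatase of stress-activated MAP kinases, had 106 ± 15.9, 99.0 ± 12.8 and 83.6 ± 4.01 CPM in G1, G2 and G3 (SD). EPHB3, an ephrin receptor, had 13.4 ± 4.44, 9.54 ± 1.52 and 8.12 ± 0.762 CPM. UPF3A, a factor of nonsense-mediated mRNA decay, had 21.0 ± 1.42, 14.8 ± 1.48 and 14.2 ± 2.17 CPM. UPF3A was the one of these 6 whose ranges parted from G1: 19.2 to 22.5 CPM in G1, 12.9 to 16.5 in G2 and 11.6 to 18.0 in G3. Such a separation, lower without overlap, was seen for 0.187% of genes between G3 and G1 and for 0.125% between G2 and G1. Kidney 2 of G1, the lowest of its group in ARNT2, was the lowest of its group in UPF3A as well, though above every kidney of G2 and G3.

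The lowest r with ARNT2 were those of NEPRO (-0.77), ARRDC4 (-0.73), OCIAD2 (-0.73) and CAMK2N1 (-0.72). After the group means were removed these were -0.65, -0.57, -0.58 and -0.57, and none of the 4 stayed among the 4 lowest. NEPRO, a nucleolar protein, had 7.48 ± 0.925 CPM in G1, 7.86 ± 0.718 in G2 and 9.22 ± 0.839 in G3 (SD). ARRDC4, an arrestin-like adaptor of membrane proteins, had 75.2 ± 14.8, 91.0 ± 24.9 and 119 ± 31.8 CPM. CAMK2N1, an inhibitor of the calcium-dependent kinase CAMK2, had 19.8 ± 2.19, 29.9 ± 9.52 and 30.3 ± 6.29 CPM, and OCIAD2 had 59.8 ± 7.63, 68.6 ± 13.4 and 74.5 ± 9.56 CPM. In these 4 genes the means ran in the reverse order of ARNT2, from G1 to G3, which again follows largely from the choice by r. The members of its own family nearest to these extremes were EPAS1, with an r of -0.57 (0.649% of the genes had a lower r), and NPAS2, with an r of -0.55 (0.861% had a lower r). After the group means were removed their r were -0.34 and -0.43.

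**Figure D4:**
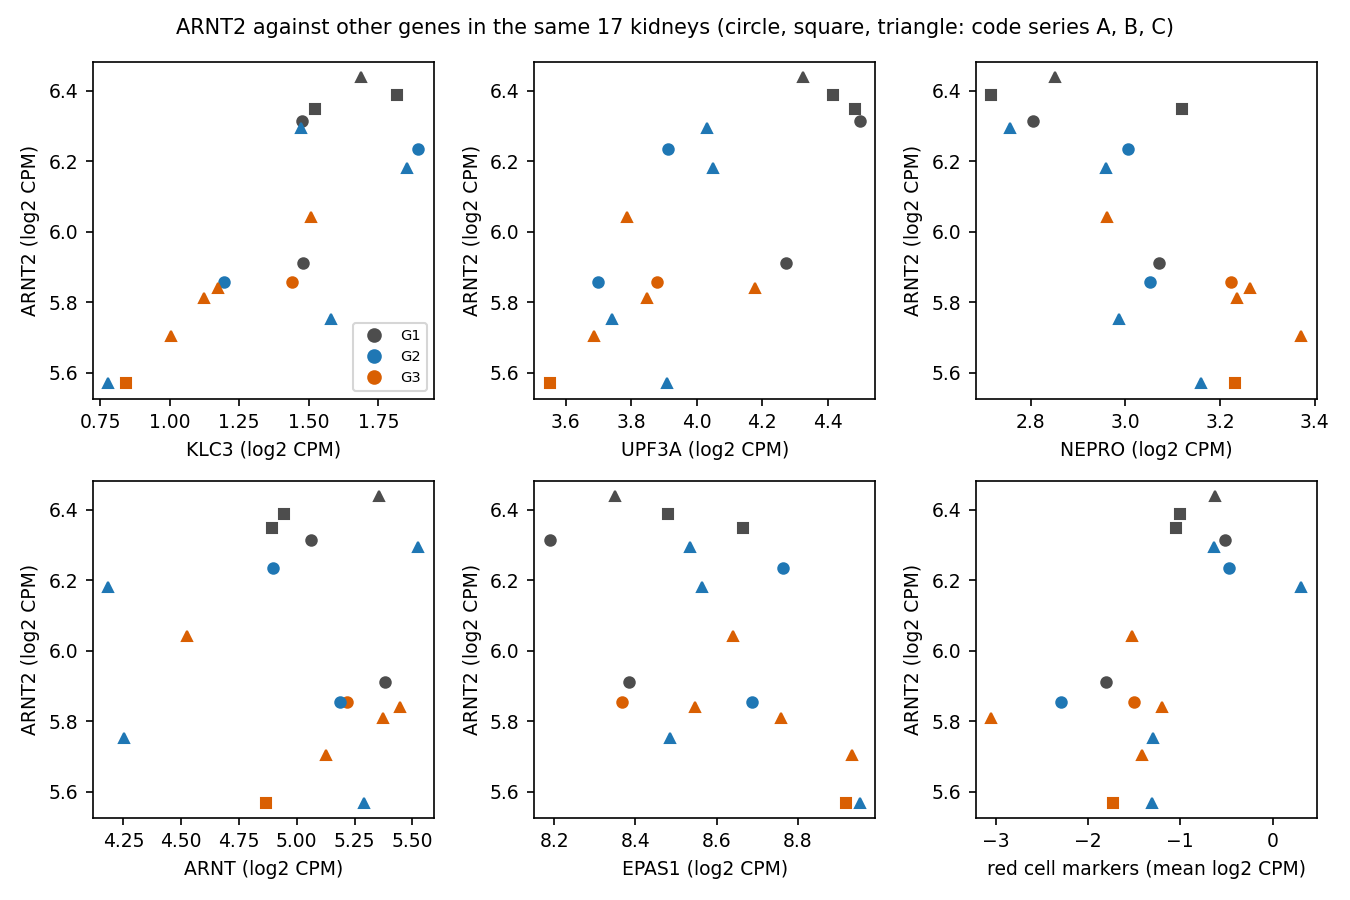
Log2 CPM of ARNT2 (vertical) in the 17 kidneys against that of KLC3, UPF3A, NEPRO, ARNT and EPAS1 and against the mean log2 CPM of 3 red cell markers, coloured by group and shaped by code series. ARNT2 ran with KLC3 (r = 0.80) and against NEPRO (r = -0.77), and had no such relation with ARNT (r = -0.04).

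Whether ARNT2 moved with the cell types in the biopsies was examined with 12 marker lists, the total count and the number of genes detected, 14 correlations over the 17 kidneys. Since ARNT2 was chosen by its values across the groups, r over all kidneys is a description, and p-values are given only for deviations from the group means. None of these 14 had an adjusted permutation p under 0.05. The p-values rest on the same ARNT2 values by which it was chosen, so no conclusion is drawn from them. The permutations also moved deviations freely between groups and did not allow for the removed means, so these p-values can be too small. The largest r over all kidneys was that with the red cell markers HBB, ALAS2 and AHSP, 0.60, with a Spearman rho of 0.62. Without the 2 kidneys farthest from the median of the red cell score, kidney 6 of G2 and kidney 5 of G3, r was 0.69. After the group means were removed r was 0.55 (two-sided permutation p = 0.0215, Benjamini-Hochberg adjusted p = 0.301) and rho 0.58 (permutation p = 0.0171, adjusted p = 0.24). Within the 9 kidneys of code series C r was 0.55.

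These red cell markers were low throughout, with 1 to 74 counts of HBB, 0 to 19 of ALAS2 and 0 to 6 of AHSP per kidney, so that their score is imprecise. Their summed level ran from 1.42 to 3.47 CPM in G1, from 0.92 to 5.36 in G2 and from 0.0948 to 1.96 in G3, and none of the 3 was at 0 in a whole group. HBB, the beta chain of hemoglobin, had a log2 fold change of -0.98 ± 0.47 between G3 and G1 (SE; adjusted p = 0.813, edgeR), with 5 of 6 kidneys of G3 below every kidney of G1. By DESeq2 1 of the 3 was lower there at an unadjusted p under 0.05 (all genes, either direction, 3.72%). Between G2 and G1 all 3 had a log2 fold change above 0 (median 0.24), unlike ARNT2. Between G3 and G2 all 3 were below 0 (median -1.21), and 1 of 3, HBB, had an unadjusted p under 0.05 by edgeR (all genes lower, 1.52%). The part of red cell RNA in the level of ARNT2 was not tested.

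With TMM scaling, though not with library-size scaling, the next largest r was with the 7 endothelial markers, -0.38 (rho -0.37). After the group means were removed it was -0.25 (rho -0.18, permutation p = 0.323 and 0.486, adjusted p = 0.843 and 0.892). Over all kidneys proximal tubule markers had an r of -0.07, thick ascending limb 0.14, distal convoluted tubule 0.11 and collecting duct principal cells -0.19. Intercalated cells had -0.31, podocytes -0.23, fibroblasts 0.23 and injured tubule 0.03. In the distal convoluted tubule list, PVALB had an r of 0.54 and CALB1 one of -0.56. PVALB had means of 2.73, 2.09 and 1.01 CPM in G1, G2 and G3. Of the 4 genes of that list, PVALB was the 1 lower between G3 and G1 at an unadjusted p under 0.05 (edgeR, all genes 2.79%). The smallest adjusted p of the list was 0.551. The part of these cells in the level of ARNT2 was not tested. The total count had an r of -0.33 and the number of genes detected one of 0.11. With library-size scaling in place of TMM these were -0.42 and 0.45, that of the red cell markers was 0.49, that of the endothelial markers -0.19 and that of injured tubule 0.24. Of the 63 marker genes, edgeR gave 0 an adjusted p under 0.05 in any comparison and DESeq2 0 as well. At an unadjusted p under 0.05 edgeR listed 3 between G3 and G1, 1 higher (1.59% of the markers, all genes 1.94%) and 2 lower (3.17%, all genes 2.79%). Between G2 and G1 it listed 4, all higher (6.35%, all genes 1.42%), and between G3 and G2 it listed 6, all lower (9.52%, all genes 1.52%). The last 2 shares were above those of all genes, and their part in the level of ARNT2 was not tested.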

How the data were processed

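The authors trimmed adapters with cutadapt 4.0, aligned stranded paired reads with STAR 2.7.5a to Sscrofa11.1 (Ensembl annotation release 108) and deposited raw read counts per gene and kidney. The counting program and its strand setting are not given in the sources used here. The authors also deposited their DESeq2 comparison of G3 with G1 (fold changes and p-values), which was not used. Symbols came from a reference table of gene names, for 15093 of 26560 identifiers. ARNT2, the gene lists and the marker lists were chosen with earlier results of these data known.

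Groups were taken from the labels. Each comparison used the kidneys of its 2 groups and left out genes without a count there. Differences were tested by the quasi-likelihood method of edgeR 4.0.16 with TMM scaling in R 4.3.3 and Benjamini-Hochberg adjustment over all genes tested, at 0.05. CPM used TMM-scaled libraries, and log2 CPM a prior count of 2. DESeq2 1.42.0, RLE or library-size scaling, filterByExpr, all 3 groups in one fit, the code series as covariate, a block for kidney number and leaving out each kidney were the alternatives. Correlations with marker lists were tested on deviations from group means by 100000 permutations (seed 1) in Python 3.11.15, numpy 2.4.6, pandas 2.3.3 and scipy 1.17.1, with matplotlib 3.10.9 for the plots. On simulated counts for G3 against G1, 200 well-counted genes among 25719 were doubled or halved. There edgeR found 161 with 15 false calls and DESeq2 173 with 38. Smaller changes, such as that of ARNT2, were not simulated, so no detection rate is known for them. Genes named were ARNT2, all bHLH-PAS genes measured, of each other pathway list those with an unadjusted p under 0.05 in any comparison (at most 6, and otherwise the smallest p up to 3), the 6 highest and 4 lowest r with ARNT2 among genes with a symbol, and marker genes. Some genes that this rule names are not reported here. FAH and CEMIP were added as neighbours on the chromosome after their values were seen. Each kidney came from a different animal and counts as 1 replicate. Kidneys of 1 group differed by more than counting error in all 40 pairs (chi-square per degree of freedom 21.4 to 153).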

Additional observations from a re-analysis of the deposited data

Results flagged for a closer look

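In 140 groups of 5 or 6 kidneys (16 bHLH-PAS genes, the genes most and least like ARNT2, the summed level of each list, the total count and the number of genes detected), the highest or lowest kidney was compared with the others by Dixon's criterion at 95%. It marked 11 groups, where chance alone gives about 1 in 20, or 7.0 of 140.

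Kidney 2 of G1 had 60.1 CPM of ARNT2, and the next lowest of G1 had 79.5. Since ARNT2 was chosen by its values in these kidneys, this mark is a description. Kidney 2 of G1 was also the highest of its group in NPAS3 (0.457 CPM, next 0.191), which rests on 10 counts. Kidney 1 of G1 was the lowest of its group in CLOCK (17.2 CPM, next 29.4).

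Kidney 6 of G3 was the highest in ARNT2 of that group with TMM scaling, though not per total count. It was the highest in SIM2 (3.41 CPM, next 1.79). It had the highest summed level of thick ascending limb markers (7030 CPM, next 3530) and of collecting duct principal cell markers (464 CPM). It was also the highest in the summed level of the oxygen sensing and HIF control list (7020 CPM, next 5250), of which the chaperone HSP90AA1 alone made up 5630 CPM. The mean log2 CPM over the 13 genes of that list was 6.14 ± 0.063 in G3 (SD, n = 6), the narrowest of the 3 groups. Their part in its ARNT2 level was not tested. Kidney 3 of G3 was the highest in HIF3A (0.943 CPM, next 0.408), kidney 4 of G3 the lowest in DUSP16 (75.8 CPM, next 83.3), and kidney 1 of G3 the highest in the summed brain targets (3.81 CPM, next 1.42). NPAS4 in kidney 6 of G2 (0.0542 CPM) is 1 count where the other 5 kidneys had 0.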

How the results depend on the processing

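The log2 fold change of ARNT2 kept its sign in every fit: -0.58 to -0.48 between G3 and G1, -0.37 to -0.25 between G2 and G1 and -0.21 to -0.14 between G3 and G2 over 7 alternatives each, and -0.56 to -0.44, -0.37 to -0.21 and -0.27 to -0.13 when leaving out each kidney. With kidney number as a replicate block it was -0.52, -0.34 and -0.17. The numbers only number kidneys of different animals (deviations of same-numbered kidneys correlated from -0.255 to 0.445, and 3 of 5, 1 of 5 and 1 of 6 pairs matched best). Genes passing an adjusted p of 0.05 for G3 against G1 numbered 29 by DESeq2, 11 with code series, 9 with the replicate block, 1 with filterByExpr and 0 with all groups in the fit, and 0 to 9 when leaving out each kidney. Between G2 and G1 it was 1 by DESeq2 and 2 with code series, and 0 when leaving out any kidney. Between G3 and G2 it was 3 by DESeq2 and 7 with the replicate block, and 0 to 5 when leaving out each kidney. With filterByExpr, which tests fewer genes, those with an unadjusted p under 0.05 numbered 671, 426 and 388, and leaving out each kidney gave 957 to 1458, 661 to 1215 and 686 to 990. Oxygen pathway genes at this level between G3 and G1 were 2 by DESeq2, with RLE or with all groups (2.74% of the list, all genes 3.72%, 4.72% and 4.34%) and with filterByExpr (2.94%, all genes 4.4%), 5 with library size (6.85%, all genes 5.28%), 7 with code series (9.59%, all genes 4.89%) and 8 with the replicate block (11.0%, all genes 4.39%), and 0 to 11 when leaving out each kidney (0.0% to 15.1%, all genes 3.74% to 5.73%). Between G2 and G1 they were 7 with code series (9.59%, all genes 4.42%), 1 with filterByExpr (1.47%, all genes 2.79%) and 4 with the replicate block (5.48%, all genes 2.42%; 1 to 5 when leaving out each kidney, 1.37% to 6.85%, all genes 2.6% to 4.79%). Between G3 and G2 they were 7 with code series (9.72%, all genes 3.36%), 1 with filterByExpr (1.47%, all genes 2.58%) and 4 with the replicate block (5.56%, all genes 2.12%; 0 to 7 when leaving out each kidney, 0.0% to 9.72%, all genes 2.7% to 3.89%). Of the 10 genes nearest to or farthest from ARNT2, 6 were shared with Spearman's rho and 2 with deviations from group means. The causes of these shifts were not tested. With 5 or 6 kidneys a group and a spread of 11.0% to 19.98%, small differences in ARNT2 were not detectable. That limit lies well above 1 SE. Low counts limit HIF3A, NPAS1, NPAS3, NPAS4, EPO, the brain targets and the red cell markers among others.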
